A study of Homo sapiens with 58 samples.

Results

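ELAVL1 encodes HuR, the RNA-binding protein that was immunoprecipitated in every library of this series, and the 16 peaks described here are the sites on ELAVL1 RNA to which HuR itself was crosslinked. They are all peaks that the deposited peak table names ELAVL1 (ENSG00000066044), 16 of 387214 after repeated lines were dropped. Of these, 11 are annotated as 3'UTR, 4 as intron and 1 as coding sequence.

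The data come from 58 libraries of HuR CLIP-seq in Huh-7.5, a human hepatocellular carcinoma cell line, in which RNA bound to HuR is fixed to it by UV light, recovered with an anti-HuR antibody and sequenced. Wild-type cells without an APEX reaction gave 12 libraries, 3 each of the nuclear and the cytoplasmic fraction, mock treated or after 0.5 mM sodium arsenite for 45 min, an oxidative stress under which stress granules form. The other 46 libraries come from 3 lines that carry APEX, a peroxidase that biotinylates proteins near it, with a nuclear localisation signal (APEX-NLS), with a nuclear export signal (APEX-NES) or fused to the stress granule protein G3BP1 (APEX-G3BP1), after labelling with biotin phenol and hydrogen peroxide. From each line and treatment there are input libraries, made by HuR immunoprecipitation alone (17 in all), and enriched libraries with an added streptavidin capture (29 in all). Per the labels, all cells received UV doses of 400 and 200 mJ/cm2. Nothing in the labels says whether replicates are separate cultures or whether a line is 1 clone, so p-values measure only the spread between these libraries.

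HuR is mostly nuclear at rest, shuttles to the cytoplasm and joins stress granules under stress. It binds U-rich and AU-rich stretches in introns and 3'UTRs, and in the cytoplasm it is known for stabilising the messages it holds. Its own message is a known target: ELAVL1 mRNA is made with 3'UTRs of different length by alternative polyadenylation, the longer forms carry AU-rich elements, and HuR bound there takes part in setting its own level.

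Values are CPM, the tags (crosslinked fragments) in a peak in every 1000000 of the library total that the deposited values imply. The totals were 686263 to 1759090 in the fraction libraries, 17051 to 2622677 in the input and 4662 to 944225 in the enriched libraries. ELAVL1 held 15 to 75 tags in each fraction library, 0 to 104 in the inputs and 0 to 19 in the enriched libraries, so single peaks often rest on a few tags. CLIP tags rise with the amount of an RNA and with the share of it that HuR holds, and here both cannot be told apart. Of 9 hepatocyte markers, 7 had HuR peaks, among them AFP and ALB, while COL1A1 and COL1A2 (fibroblast) had none and PTPRC, PECAM1 and VWF had no more than 5.46 CPM in any fraction library. APOA1, TTR and CD74 also had no peak.

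Nearly all HuR tags in ELAVL1 peaks lay in the 3'UTR: 967 of 1022 over all 58 libraries, or 94.6%. ELAVL1 tags here and below are those inside its 16 peaks, and tags elsewhere on the gene are not counted. Peaks of all genes held 34.1% to 38.7% of tags in fraction, 6.02% to 21.1% in input and 3.85% to 18.6% in enriched libraries. The gene lies on the minus strand of chromosome 19 from 7958573 to 8005641 (RefSeq, GRCh38.p14), so its 3' end has the lowest coordinate, and peaks are named here by the distance of their start from that end. All are 20 nt long. The 8 upstream 3'UTR peaks, at 3257 to 4863 nt, lie within 1626 nt, and they held 912 of the 967 3'UTR tags (94.3%). The table annotates these 8 as both 3'UTR and intron, and the 3 downstream peaks as 3'UTR alone. The 3 downstream peaks, at 466, 644 and 2141 nt, held 55 tags. ELAVL1 has more 3'UTR peaks than most genes: 888 of 7619 genes with such a peak have at least 11, against a median of 3. The median mean level of its 3'UTR peaks over the 12 fraction libraries was 2.33 CPM, and that of all 3'UTR peaks 0.721 CPM; 10 of the 11 were above the latter.

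**Figure D1:**
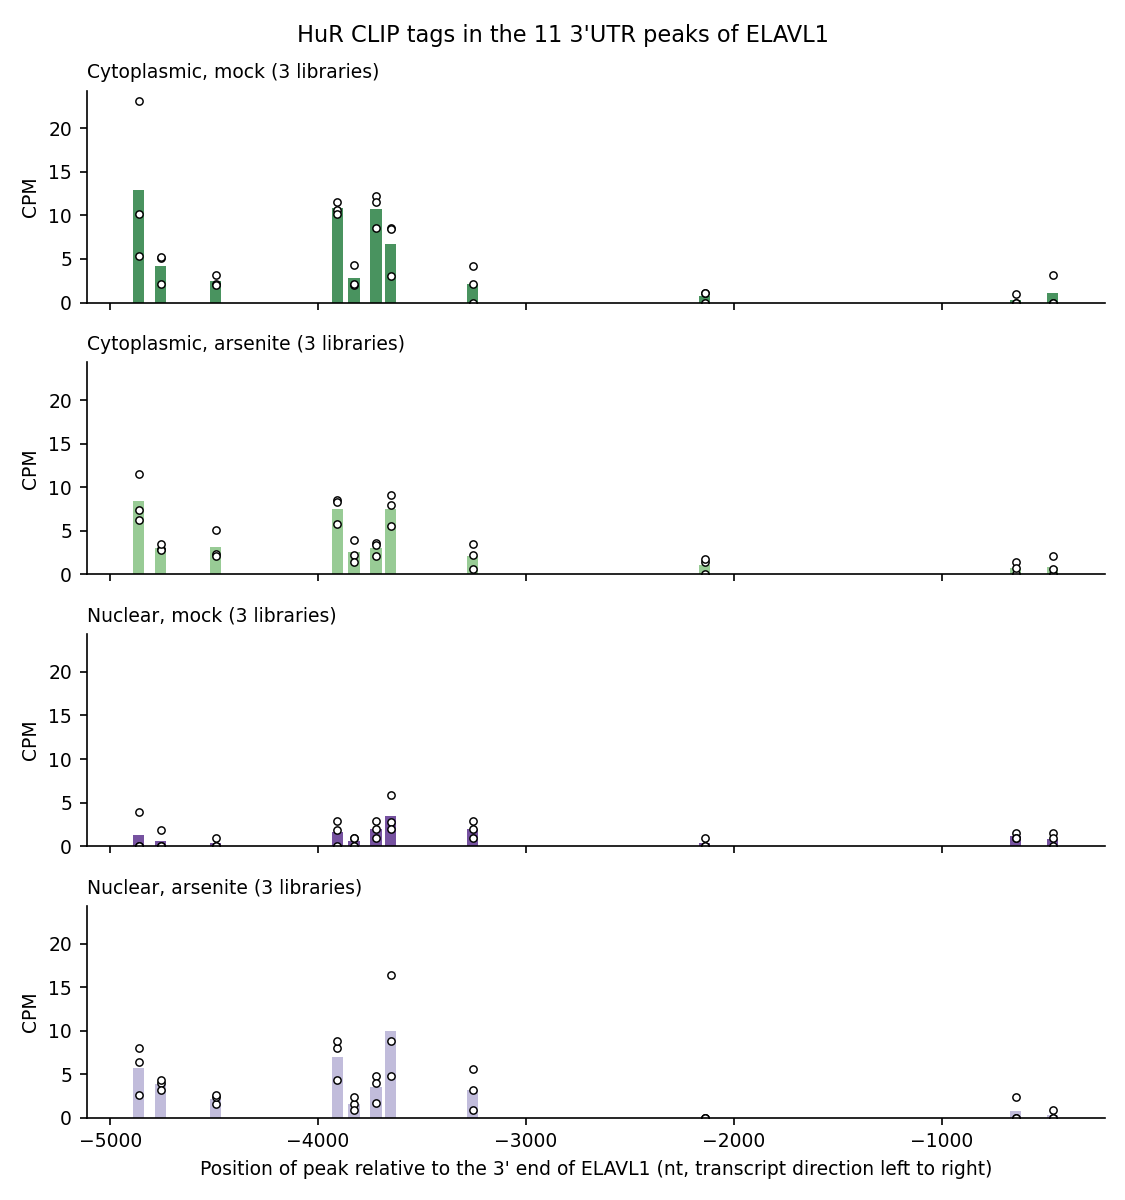
CPM of each of the 11 3'UTR peaks of ELAVL1 (vertical axis) by position upstream of the 3' end of the gene in nt (horizontal axis), with 1 panel per fraction and treatment; bars are means of 3 libraries and circles are single libraries. The 8 peaks between 3257 and 4863 nt hold most tags in every panel, and the nuclear mock panel is the lowest there.

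The highest 3'UTR peak by mean over the 12 fraction libraries was the most upstream, 4863 nt from the end (chr19:7963436-7963456). In the cytoplasmic fraction it had 5.32, 10.2 and 23.2 CPM in mock and 11.6, 7.39 and 6.26 CPM in arsenite-treated cells. In the nuclear fraction it had 0, 0 and 3.86 CPM in mock and 8.01, 6.40 and 2.60 CPM after arsenite. Its nuclear mock libraries were all below its cytoplasmic mock libraries, and the other groups overlapped with their counterparts.

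The peak at 3651 nt (chr19:7962224-7962244) did not follow the fractions. It had 8.51, 3.06 and 8.44 CPM in cytoplasmic mock, 7.94, 9.10 and 5.56 CPM in cytoplasmic arsenite, 5.83, 2.73 and 1.93 CPM in nuclear mock and 4.80, 8.80 and 16.5 CPM in nuclear arsenite libraries. No pair of these groups that differ in 1 factor was free of overlap, and one nuclear arsenite library gave its highest value.

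The peak at 3907 nt (chr19:7962480-7962500) was the steadiest in mock cytoplasm, with 10.6, 10.2 and 11.6 CPM. In cytoplasmic arsenite libraries it had 5.78, 8.53 and 8.35 CPM, all below mock, and the difference did not pass the test (limma log2 difference -0.42 ± 0.26 SE, adjusted p = 0.494). In the nuclear fraction it had 2.91, 1.82 and 0 CPM in mock and 8.01, 8.80 and 4.33 CPM after arsenite, again without overlap.

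The peak at 3722 nt (chr19:7962295-7962315) had 8.51, 12.2 and 11.6 CPM in cytoplasmic mock libraries and 3.61, 3.41 and 2.09 CPM after arsenite. Its nuclear values were 2.91, 0.909 and 1.93 CPM in mock and 4.80, 4 and 1.73 CPM after arsenite. The mock cytoplasm thus stood above the other 3 groups in every library.

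The fifth peak by mean level, at 4757 nt (chr19:7963330-7963350), had 2.13, 5.09 and 5.27 CPM in cytoplasmic mock, 2.89, 2.84 and 3.48 CPM in cytoplasmic arsenite, 0, 1.82 and 0 CPM in nuclear mock and 4, 3.20 and 4.33 CPM in nuclear arsenite libraries. The nuclear mock libraries were below those of both groups they are compared with. The other 6 3'UTR peaks had means of 0.519 to 2.33 CPM over the 12 libraries.

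The intron peaks held 48 tags over all libraries, none of them in an enriched library. The peak at 9319 nt (chr19:7967892-7967912), annotated as intron and as within 10 kb downstream of a gene, held 25 of them, 24 in fraction libraries. It had 5.83, 5.46 and 0.966 CPM in nuclear mock, 0.801, 0.800 and 1.73 CPM in nuclear arsenite, 0, 1.02 and 2.11 CPM in cytoplasmic mock and 0.722, 1.14 and 2.09 CPM in cytoplasmic arsenite libraries. A pair of nuclear mock libraries stood out and the third lay among the cytoplasmic values; nuclear and cytoplasmic mock overlapped (limma log2 difference 0.87 ± 0.42 SE, adjusted p = 0.306).

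The intron peak at 17504 nt (chr19:7976077-7976097) had 2.17, 1.14 and 2.09 CPM in the cytoplasmic arsenite libraries, 1.05 CPM in one cytoplasmic mock library, 0.800 CPM in one nuclear arsenite library and 0 in the other 7. The third, at 32913 nt (chr19:7991486-7991506), held 4 tags in 3 of the 12 fraction libraries. The coding sequence peak, at 15035 nt (chr19:7973608-7973628), held 7 tags in all 58 libraries, 2 of them in the fractions.

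The comparison of the 2 fractions asks in which compartment HuR holds its own message. In mock cells HuR tags on the ELAVL1 3'UTR were lower in the nuclear fraction on library totals. Scaled to tags in 3'UTR peaks the fractions were alike, as given below. The sum over the 11 peaks was 17.5, 10.9 and 13.5 CPM in the nuclear and 47.9, 45.8 and 70.6 CPM in the cytoplasmic libraries, 13.97 ± 3.31 against 54.8 ± 13.8 CPM (SD, n = 3 each). The nuclear mean was 0.255 of the cytoplasmic one, with no overlap (exact permutation test, two-sided, p = 0.1, which is the minimum for groups of 3; 0.425 adjusted over the 17 such tests made here).

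Among single peaks, limma called 2 of the 12 ELAVL1 peaks with enough libraries above 0 to be tested, both lower in the nucleus; 2.29% of all 157168 peaks tested were called lower. Of the 12, 11 are 3'UTR peaks, as are both called ones, and among the 21892 3'UTR peaks tested 13.1% were called lower, so the count for ELAVL1 is near that of its class. The called peaks were that at 3722 nt (log2 difference -1.65 ± 0.31 SE, adjusted p = 0.0228) and that at 3907 nt (-1.84 ± 0.36 SE, adjusted p = 0.0242). The log2 scale adds a pseudocount of 2.28 CPM to each value, which understates the change of low peaks. The quasi-likelihood test of edgeR on recovered whole tags called these and the peak at 4863 nt lower (its adjusted p = 0.031, limma 0.0708), where it called 2.34% of all peaks lower. In 6 of the 11 3'UTR peaks every nuclear library was below every cytoplasmic one, as in 48% of all 3'UTR peaks tested. With nuclear mock 1 left out limma still called 2 of 13 ELAVL1 peaks lower, where it called 7.46% of all peaks in either direction, against 2.82% with every library. Without 1 of nuclear mock 2 or 3 or cytoplasmic mock 1, 2 or 3 it called 0, and its calls over all peaks, in either direction, went from 4437 to between 0 and 810 (0% to 0.385%).

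The sum was also tested among the 3'UTR sums of all genes with limma. For ELAVL1 limma gave -1.81 ± 0.25 SE in log2 units (adjusted p = 0.000106), and 56% of the 6090 genes tested were called lower. The median gene was at -0.98, and ELAVL1 lay below it. The size of the difference and its call depended on the scaling. Scaled to tags in all peaks ELAVL1 was still called lower, where 53.5% of genes were called in either direction. The call was lost in the 2 scalings that follow. 3'UTR peaks of all genes together held 40079 CPM in nuclear and 159354 CPM in cytoplasmic mock libraries. Of every 1000000 tags in 3'UTR peaks, ELAVL1 took 349 ± 79.6 (SD, n = 3) in the nucleus against 344 ± 70.3 (SD, n = 3) in the cytoplasm (log2 difference 0.014, limma adjusted p = 0.982). With edgeR and TMM normalisation the log2 difference was -0.43 (adjusted p = 0.294). Of 2 nuclear RNAs, NEAT1 had 385 to 440 CPM in nuclear mock libraries and 116 to 138 CPM in cytoplasmic ones, without overlap, and limma called 11 of its 56 tested peaks higher in the nucleus and 0 lower, where 0.53% of all peaks were called higher. MALAT1 had 2347 to 2739 CPM in the nuclear and 2149 to 2708 CPM in the cytoplasmic libraries, which overlap, and 1 of its 22 peaks was called higher and 0 lower. The part of fraction purity in the ELAVL1 values was not tested.

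After arsenite the fractions overlapped on library totals and not when scaled to 3'UTR tags. The 3'UTR sum was 40.8, 39.2 and 34.7 CPM in the nuclear and 44.0, 40.4 and 35.5 CPM in the cytoplasmic libraries, 38.2 ± 3.20 against 39.96 ± 4.30 CPM (SD, n = 3 each; exact permutation p = 0.6, adjusted 0.68). Across genes its log2 difference was -0.058 ± 0.18 SE (limma adjusted p = 0.877), where 14.1% of 6591 genes were called in either direction and the median gene was at -0.17. Of every 1000000 3'UTR tags ELAVL1 had 569, 571 and 537 in the nuclear and 493, 417 and 408 in the cytoplasmic libraries, so every nuclear library was higher, and the difference missed the threshold (log2 difference 0.33, limma adjusted p = 0.211). Limma called 0 of 12 ELAVL1 peaks after adjustment, against 0.257% of all peaks, and edgeR 0, against 0.655%. In limma 1 had an unadjusted p under 0.05, a count with no share of all peaks beside it. The peak at 17504 nt was the one with an unadjusted p under 0.05, lower in the nucleus (limma log2 difference -0.68 ± 0.28 SE, adjusted p = 0.278).

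Arsenite and mock were then compared within each fraction, to ask whether stress moves HuR on its own message. In the nucleus the 3'UTR sum was higher after arsenite, 38.2 ± 3.20 against 13.97 ± 3.31 CPM (SD, n = 3 each), 2.74 times the mock mean and without overlap (exact permutation p = 0.1, the smallest possible, adjusted 0.425). The fit across genes gave 1.33 ± 0.21 SE in log2 units (limma adjusted p = 0.00118). There 19.2% of 6001 genes were called higher and the median gene was at 0.39. A total of 413 genes had a higher log2 difference than ELAVL1. All 3'UTR peaks together held 68293 CPM in the nuclear arsenite libraries. Scaled to them, ELAVL1 had 569, 571 and 537 of every 1000000 3'UTR tags after arsenite and 424, 265 and 357 in mock, still without overlap, but the difference missed the threshold (log2 difference 0.64, limma adjusted p = 0.0834; edgeR with TMM 0.93, adjusted p = 0.00765).

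No single peak carried that rise past the test. Limma called 0 of 11 tested peaks in the nucleus (5 at an unadjusted p under 0.05), against 0.186% of all peaks, and edgeR 0 (5 unadjusted), against 0.377%. The 5 in limma were the peaks at 3651, 3907, 4493, 4757 and 4863 nt, with limma log2 differences of 1.03, 1.32, 0.81, 1.14 and 1.26 and adjusted p-values of 0.21 to 0.264. At 3907, 4493 and 4757 nt, 3 of the 10 tested 3'UTR peaks, every arsenite library was above every mock library, as in 20.3% of all 3'UTR peaks tested.

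In the cytoplasm the 3'UTR sum was 39.96 ± 4.30 CPM after arsenite and 54.8 ± 13.8 CPM in mock (SD, n = 3 each; exact permutation p = 0.1, adjusted 0.425), without overlap. The difference of -14.8 CPM was -6.89 CPM without cytoplasmic mock library 3 (70.6 CPM). The fit across genes gave -0.41 ± 0.21 SE (limma adjusted p = 0.174; -0.22 without that library, adjusted p = 0.532), where 22.4% of 6685 genes were called in either direction and the median was -0.30. Of every 1000000 3'UTR tags the values were 439 ± 47.0 and 344 ± 70.3 (SD, n = 3 each), the other way round (log2 difference 0.35, limma adjusted p = 0.166).

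Of the 11 tested 3'UTR peaks, those at 3722 and 3907 nt had every cytoplasmic arsenite library below every mock library, as in 21.3% of all 3'UTR peaks tested. Limma called 0 of 13 ELAVL1 peaks after adjustment, against 0.76% of all peaks. It put 2 at an unadjusted p under 0.05, a count with no share of all peaks beside it. The first was the peak at 3722 nt, at -1.30 ± 0.27 SE in log2 units (limma adjusted p = 0.0684). The other with an unadjusted p under 0.05 was the intron peak at 17504 nt (limma log2 difference 0.64 ± 0.28 SE, adjusted p = 0.244). There every arsenite library was above every mock library, as in 16.1% of all peaks tested, from 8 tags against 1. EdgeR called the peak at 3722 nt lower (adjusted p = 0.0274), as it did 1.01% of all peaks. With cytoplasmic arsenite library 1 or 2 left out limma called 1 of 14 peaks, where it called 6.17% and 7.16% of all peaks, so that count is near the background. The neighbour 71 nt further downstream, at 3651 nt, was at 0.19 ± 0.34 SE (limma adjusted p = 0.841).

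On library totals, the arsenite effect on the 3'UTR sum differed between the fractions, a call that 2 other scalings lost and 1 kept. The interaction across genes was 1.75 ± 0.32 SE on the log2 scale (limma adjusted p = 1.76e-05), where 28.6% of 7282 genes were called in this direction and the median gene was at 0.63. It was 0.32 when scaled to tags in 3'UTR peaks (adjusted p = 0.662) and 0.72 with edgeR and TMM normalisation (adjusted p = 0.258). Scaled to tags in all peaks it was 1.68 (limma adjusted p = 2.26e-05). For single peaks limma called 0 of 14, against 0.352% of all peaks, and edgeR 0, against 0.345%.

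**Figure D2:**
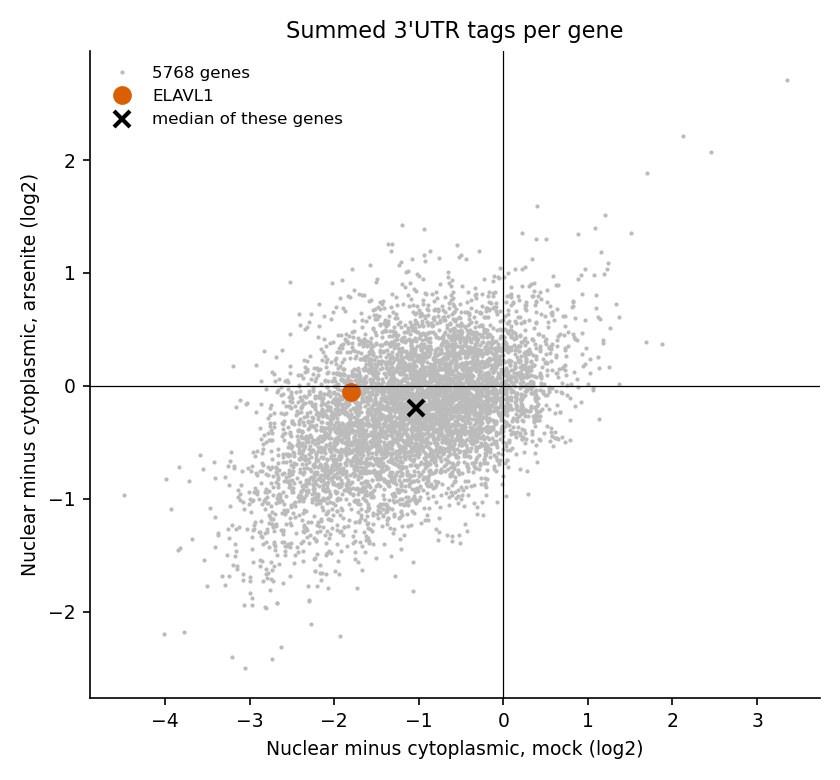
Log2 difference of the summed 3'UTR tags, nuclear minus cytoplasmic fraction, in mock (horizontal axis) and arsenite-treated cells (vertical axis) for 5768 genes tested in both; grey points are genes, the circle is ELAVL1 and the cross is the median gene. ELAVL1 lies at -1.81 and -0.058, and the median gene at -1.03 and -0.19.

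The summed intron values overlapped between the groups compared. The 4 intron peaks summed to 4.39 ± 2.97 CPM in nuclear mock, 1.91 ± 1.21 in nuclear arsenite, 2.10 ± 1.83 in cytoplasmic mock and 3.58 ± 1.75 in cytoplasmic arsenite libraries (SD, n = 3 each), with exact permutation p-values of 0.3 to 0.5. The 3'UTR took 75%, 63.2% and 93.3% of the tags in ELAVL1 peaks in the nuclear mock libraries and 97.8%, 97.8% and 94.4% in the cytoplasmic ones, -19.5 percentage points apart on average (p = 0.1, exact permutation test, adjusted 0.425). These nuclear shares rest on 15 to 19 tags each. After arsenite the shares were 93.9% ± 3.75 and 91.7% ± 4.53 (SD, n = 3 each; exact permutation p = 0.6).

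Input libraries, where HuR was recovered from whole cells of the APEX lines, again had ELAVL1 tags in the 3'UTR: 359 of 370 tags. Their CPM was lower in set JL1024 than in set JL0388 (the set is the prefix in each sample's description) in all 6 groups. In set JL0388 the 3'UTR sum was 36.4 CPM in NLS mock, 44.9 in NLS arsenite, 31.2 in NES mock, 29.7 in NES arsenite, 26.1 in G3BP mock and 42.2 in G3BP arsenite. In set JL1024 the same groups had 4.19, 7.85, 16.5, 16.3, 0 and 11.1 CPM, with NLS mock from 2622677 tags (95% Wilson interval 2.34 to 7.51 CPM). The share of tags in peaks was 18.8% to 21.1% in JL0388 inputs and 6.02% to 11.9% in JL1024 inputs. Of every 1000000 tags in peaks, the 4 NLS and G3BP groups were still lower in JL1024, but NES mock had 181 against 164 in JL0388 and NES arsenite 180 against 146, the JL1024 values from 2 tags each. The descriptions of the JL1024 inputs end in "All", and whether each pools several replicates is not stated, so each is counted here as 1 library. JL0361 holds G3BP libraries alone, with 0 and 9.49 CPM in mock and 0, 32.5 and 29.0 CPM after arsenite. The zeros come from the libraries with 17051 to 22476 tags in all, where 3 tags would already be 133 to 176 CPM. Intervals cover counting error only.

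Across the inputs, with line and set as covariates, the 3'UTR sum was 0.88 ± 0.68 SE higher in log2 units after arsenite (limma adjusted p = 0.427), and limma called 0 of 3802 genes (0%; 738 at an unadjusted p under 0.05). EdgeR on library totals called 918 of them (24.1%) and put ELAVL1 at 0.56 (adjusted p = 0.115), and with TMM it called 3. Limma called 0 of 5 ELAVL1 peaks and 0 of all peaks (0%), while edgeR called 0 of 5 and 1.61% of all peaks. The inputs thus gave no call for arsenite on ELAVL1, with a wide error.

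**Figure D3:**
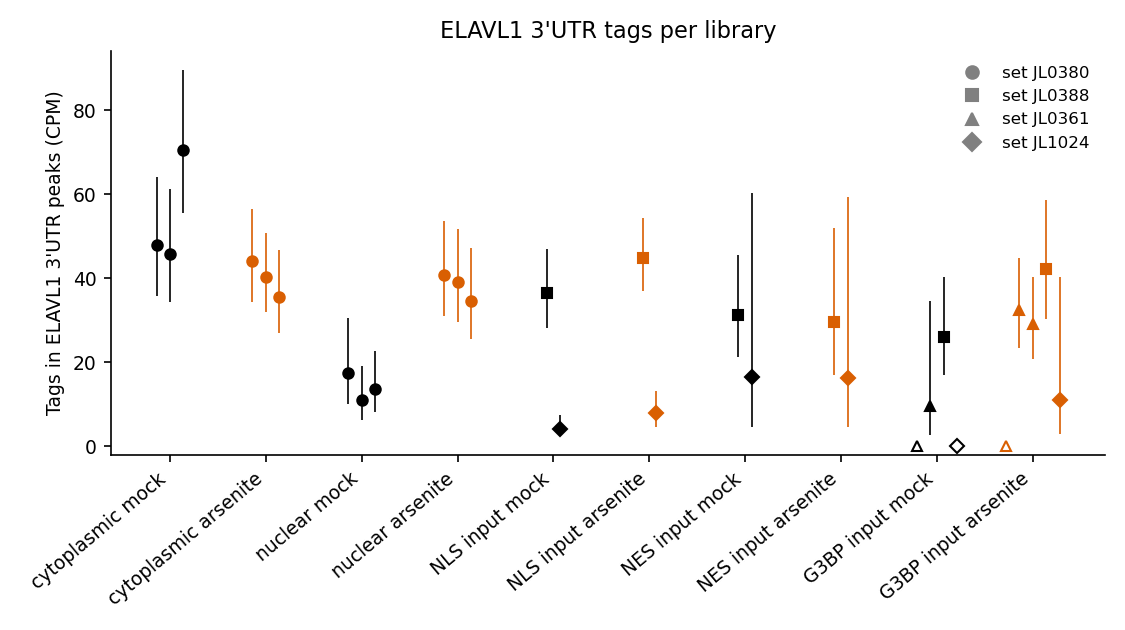
Summed CPM of the 11 ELAVL1 3'UTR peaks (vertical axis) in each fraction and input library, by group (horizontal axis); black is mock, orange arsenite, the shape is the library set, bars are 95% Wilson intervals and open symbols are libraries under 100000 tags, drawn without one. Nuclear mock libraries lie between 10.9 and 17.5 CPM, below the other fraction libraries, and JL1024 inputs lie below JL0388 inputs.

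The peak at 3722 nt led in the inputs. It held 116 of the 359 3'UTR tags there (32.3%), against 63 of 518 (12.2%) in the fractions. In the 7 input libraries with at least 20 ELAVL1 3'UTR tags it took 25.7% to 40%, in both treatments. In the fraction libraries of that depth it took 16.4% to 26.7% in cytoplasmic mock, 5.88% to 8.45% in cytoplasmic arsenite and 5.00% to 11.8% in nuclear arsenite. Fraction and input libraries differ in cell line, APEX reaction and library set, which cannot be told apart, and no test was made.

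Enriched libraries carry HuR RNA from near the APEX protein. They held 91 ELAVL1 tags in all, 90 of them in the 3'UTR, and 9 of the 29 had none. In 5 pairs of JL0388 libraries the tags over the 500 highest peaks were not told apart from counting noise (chi-square per degree of freedom 0.976 to 1.09, permutation p = 0.072 to 0.785 from redrawn tables). The JL1024 pair of each such group was told apart in at least 19 of 20 draws when thinned to that depth. Each of these 5 pairs was counted as 1 sample in the means that follow.

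NLS libraries had 1 to 2 3'UTR tags each in mock and 1 to 5 after arsenite, 5.06 ± 3.77 CPM (SD, n = 3) and 10.4 ± 5.08 CPM (SD, n = 3). NES libraries had 0, 2, 0 and 0 tags in mock and 3, 3, 0 and 2 after arsenite, 9.93 ± 19.9 (SD, n = 4) and 20.8 ± 33.0 CPM (SD, n = 3). The NES spread is larger than its mean in both treatments. NLS and NES did not differ beyond this spread in mock (exact permutation p = 0.914; 1 with every library counted) or after arsenite (exact permutation p = 1; 0.429 with every library counted). Within set JL1024 the direction turned in both treatments, to 2.94 and 5.91 CPM higher in NLS.

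G3BP libraries had the most ELAVL1 tags of the enriched groups. After arsenite they held 0, 31.4 and 22.9 CPM in JL0361, 113 and 143 CPM in JL0388 and 51.2 and 29.9 CPM in JL1024. In mock they held 0 and 0 CPM in JL0361, 136 (from 2 tags) and 0 CPM in JL0388 and 0 and 7.41 CPM in JL1024. The group means were 43.8 ± 44.2 CPM (SD, n = 6) after arsenite and 15.0 ± 29.6 CPM (SD, n = 5) in mock, which overlap. This comparison, chosen after the values were seen, gave a difference of 28.8 CPM (exact permutation p = 0.26), and 32.0 CPM with every library counted (exact permutation p = 0.272, adjusted 0.51). Without the JL0388 mock library of 14760 tags, which alone holds the 136 CPM, it was 42.4 CPM (unadjusted exact permutation p = 0.026), and 54.3 CPM with every other library counted (p = 0.0152). The other end of the range with 1 library left out was 17.5 CPM (exact permutation p = 0.502), without the JL0388 arsenite library at 143 CPM, which rests on 4 tags.

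G3BP and NES libraries were compared in JL0388 and JL1024, where both exist. After arsenite G3BP was at 69.6 ± 51.4 and NES at 20.8 ± 33.0 CPM (SD, n = 3 each; exact permutation p = 0.3; 0.171 with every library counted, adjusted 0.51). In mock G3BP was at 25.1 ± 37.2 (SD, n = 3) and NES at 9.93 ± 19.9 CPM (SD, n = 4; exact permutation p = 0.514; 0.714 with every library counted). With every other library counted, the mock direction turned to -7.46 CPM without that same JL0388 library. Set beside inputs of the same set after arsenite, G3BP enriched libraries had 0, 31.4 and 22.9 against 0, 32.5 and 29.0 CPM in JL0361, 113 and 143 against 42.2 in JL0388 and 51.2 and 29.9 against 11.1 in JL1024. In JL0361 the direction turned on the scaling: of every 1000000 tags in peaks the enriched libraries had 0, 382 and 243 and the inputs 0, 165 and 154. The JL1024 values rest on 6 and 2 enriched tags and 2 input tags. NES enriched libraries after arsenite were also above their input in JL0388, 78.4 and 39.4 against 29.7 CPM, and below it in JL1024, 0 and 3.54 against 16.3 CPM.

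**Figure D4:**
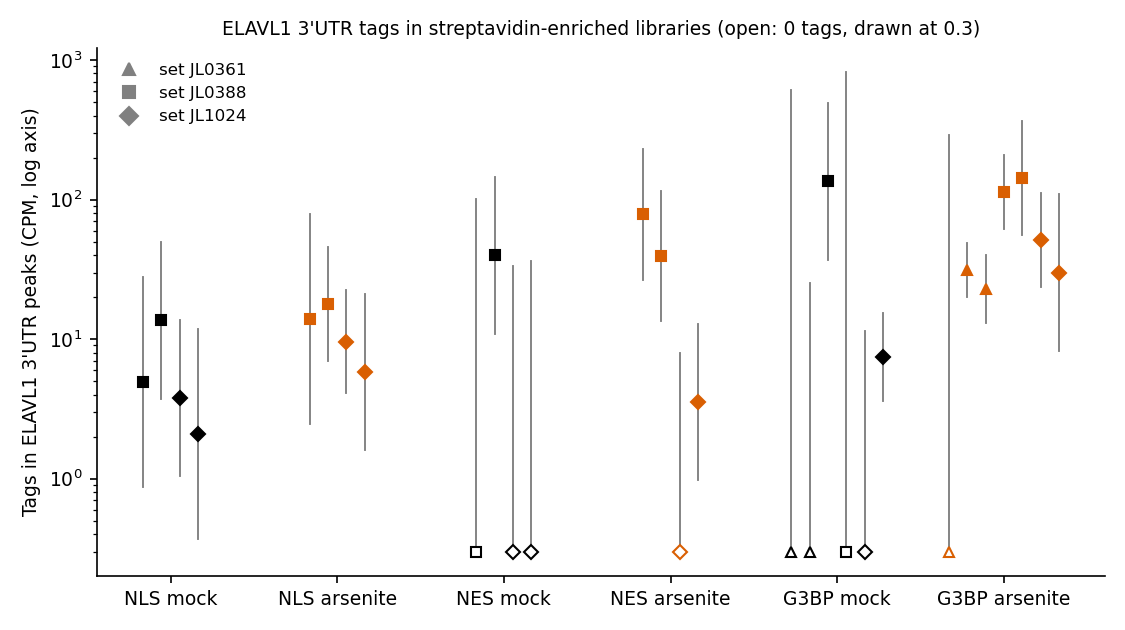
Summed CPM of the ELAVL1 3'UTR peaks (vertical axis, logarithmic) in each enriched library, by APEX line and treatment (horizontal axis); black is mock, orange arsenite, shapes are library sets, grey bars are 95% Wilson intervals, and open symbols are libraries with 0 tags, drawn at 0.3 CPM. In G3BP arsenite 6 of 7 libraries hold ELAVL1 tags, from 22.9 to 143 CPM, and in G3BP mock 2 of 6.

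Ordered by mean 3'UTR sum on library totals over the 16 groups, cytoplasmic mock came first at 54.8 CPM, then G3BP enriched arsenite at 43.8, cytoplasmic arsenite at 39.96 and nuclear arsenite at 38.2 CPM. The inputs followed, NLS arsenite at 26.4 ± 26.2, NES mock at 23.9 ± 10.3, NES arsenite at 23.0 ± 9.46 (SD, n = 2 each), G3BP arsenite at 22.9 ± 17.1 (SD, n = 5) and NLS mock at 20.3 ± 22.8 CPM (SD, n = 2), with NES enriched arsenite between the last 2 at 20.8 CPM. G3BP enriched mock (15.0), nuclear mock (13.97), NLS enriched arsenite (10.4), NES enriched mock (9.93), G3BP input mock (8.91 ± 12.3, SD, n = 4) and NLS enriched mock (5.06 CPM) were last. These means give shallow and deep libraries the same weight. With the tags of a group pooled, G3BP input mock was at 21.6 CPM, above nuclear mock at 13.5 CPM. NES enriched arsenite was then at 6.88 and G3BP enriched mock at 6.18 CPM. The ranges of every pair of neighbours in this order overlapped.

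Genes that act with HuR were then set beside all genes; on library totals most of both had lower 3'UTR sums in the mock nucleus, and as for ELAVL1 this rested on the scaling. These lists were chosen with earlier results of these data known. Of 7 export and import partners, limma called 5 lower and 0 higher, with a list median of -1.67 against -0.98 for all genes, of which 56% were called lower. Of 7 hepatocyte markers tested, 6 were called lower too (median -2.10). Scaled to tags in 3'UTR peaks, limma called 1 of the 7 partners lower and 0 higher, and their median turned to 0.19, against 0.069 for all genes, of which 4.5% were called lower and 6.37% higher. SET, which like ANP32A is a protein ligand of HuR linked to its export, was at -3.00 ± 0.21 SE on library totals (limma adjusted p = 1.38e-06), and XPO1, the export receptor, at -1.40 ± 0.23 SE. TNPO1, an import receptor, was at -1.67 ± 0.21 SE, while TNPO2 (-0.77 ± 0.43 SE) and KPNA2 (-0.32 ± 0.33 SE) did not pass. For arsenite against mock within the nucleus, limma called 4 of the 7 partners higher after arsenite and 0 lower (median 0.94 against 0.39; 19.2% of all genes were called higher), and 0 when scaled to tags in 3'UTR peaks (median 0.24 against 0.027; 3.9% of all genes higher).

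Of 10 other AU-rich or U-rich element binding proteins tested, 8 were called lower in the mock nucleus and 0 higher (median -1.67), beside 56% of all genes with a median of -0.98. Scaled to tags in 3'UTR peaks 0 were lower and 2 higher (median 0.093), beside 4.5% and 6.37% of all genes. On library totals IGF2BP1, which stabilises messages, was at -2.39 ± 0.20 SE, KHSRP, a decay factor, at -2.11 ± 0.24 SE, and TIAL1, a relative of the stress granule protein TIA1, at -0.085 ± 0.22 SE, which did not pass. For arsenite against mock within the nucleus, 6 of the 10 were called higher after arsenite and 0 lower (19.2% of all genes higher), and 3 and 0 in the other scaling (3.9% higher). Of 5 tested kinases and other modifiers of HuR, 4 were lower in the mock nucleus and 0 higher (median -1.58; 56% of all genes lower, median -0.98), among them the arginine methyltransferase CARM1 (-1.60 ± 0.33 SE), and 0 passed in the other scaling (median -0.30). In the same comparison 1 of these 5 was higher after arsenite (19.2% of all genes), and 0 in the other scaling. The interaction was called upward in 6 of 7 partners, 8 of 10 binding proteins and 1 of 6 modifiers on library totals, beside 28.6% of all genes, and in none of them when scaled to tags in 3'UTR peaks, where 1 binding protein was called downward, beside 1.06% of all genes upward and 1.37% downward. The other ELAVL genes, expressed mainly in neurons, had 1 tag among them in the fraction libraries, at ELAVL4.

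Over the 12 fraction libraries the 5 genes whose summed HuR tags followed those of ELAVL1 most closely, of 4621 with a mean of at least 10 CPM, were REST (Pearson r = 0.978), CCND1 (0.972), RHOB (0.971), PDCL (0.9699) and MORF4L2 (0.968). They were picked for that likeness, the points share libraries and depth, and the median over all genes was -0.085. REST, a repressor of neuronal genes, had means of 22.6 CPM in nuclear mock, 58.6 in nuclear arsenite, 71.2 in cytoplasmic mock and 55.8 in cytoplasmic arsenite libraries. CCND1, which encodes cyclin D1 and is a known HuR target, had 26.9, 89.6, 146 and 110 CPM in the same order. Both share with ELAVL1 the lowest value in the mock nucleus and the highest in the mock cytoplasm.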

How the data were processed

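The authors deposited 1 table of HuR CLIP signal (coverage) per 20 nt peak and library, with a peak score whose definition is not stated and which was not used here. Per the submitters' processing notes, Bowtie2, SAMtools, bedtools and HOMER and the build GRCh38.p14 were used; settings, duplicate removal and the total used for scaling are not given in the sources used here. Whether coordinates count from 0 or 1 is not stated, and they are printed as deposited.

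The table had 395471 lines, of which 8257 repeats were dropped. All values were whole multiples of 1 tag (100% within 0.1 of a whole number), which gave the tags and library totals. Of the per-library columns, 0 were left unused. A peak was tested if its number of libraries above 0 reached the size of the smaller group, with limma (version 3.58.1, R 4.3.3; eBayes with trend) on log2(value + 2.28 CPM), two-sided, with Benjamini-Hochberg adjustment over all peaks at 0.05; edgeR (version 4.0.16, glmQLFTest) on recovered tags was an alternative. The fit of summed 3'UTR values across all genes, its scalings, the G3BP arsenite test and the counting of near-identical pairs as 1 sample (with its limit of 18 of 20 draws) were added after seeing the data. Sums per library were compared with exact permutation tests (scipy 1.17.1). Fits were tested on simulated data with known changes. Fraction comparisons share groups: nuclear mock, for example, enters both a fraction and an arsenite comparison.

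The members and lists were chosen with earlier results of these data known. Printed peaks are those limma called, the 5 highest 3'UTR and 3 highest intron peaks by mean over the 12 fraction libraries; like genes are the 5 with the highest correlation. Sequences of the peaks are not shown because no genome sequence was used here. Alternatives were other pseudocounts, filters and scalings, edgeR, libraries left out and a replicate block.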

Additional observations from a re-analysis of the deposited data

Results flagged for a closer look

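Among 8 input and enriched groups of 4 to 7 libraries, 2 held a library whose summed ELAVL1 3'UTR value stood far above the rest, where chance gives about 1 in 20 groups of evenly spread values. That share was not checked for groups that, like these, are mostly at 0 and differ in depth. NES enriched mock replicate 2 had 39.7 CPM, from 2 tags, and the other 3 libraries had 0. G3BP enriched mock replicate 3 had 136 CPM, from 2 tags of a total of 14760, and the next library had 7.41 CPM.

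The arsenite effect on the summed 3'UTR value differed between the fractions by 1.75 on the log2 scale, nuclear minus cytoplasmic, in the test of the difference itself across genes (limma adjusted p = 1.76e-05), beside 28.6% of all genes called in that direction. The call was kept when scaled to tags in all peaks (1.68, adjusted p = 2.26e-05) and lost when scaled to tags in 3'UTR peaks (0.32, adjusted p = 0.662) and with edgeR and TMM (0.72, adjusted p = 0.258).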

How the results depend on the processing

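Of 380 alternative values, 347 were counted as unchanged. For peak counts this means an equal or similar number called, and for other values the same direction and side of the threshold. The exact tests of fraction libraries, 3 against 3, cannot pass the threshold, so theirs could change in direction only. Scaling to tags in 3'UTR peaks, added after seeing the data, gave the sum across genes a log2 difference of 0.014 for nuclear against cytoplasmic mock, 0.33 for arsenite, 0.35 for arsenite against mock in the cytoplasm, 0.64 in the nucleus (adjusted p = 0.0834) and 0.32 for the interaction; edgeR with TMM gave -0.43, 0.26, 0.15, 0.93 (still past the threshold) and 0.72, and scaling to tags in peaks gave 0.0011 for nuclear against cytoplasmic arsenite. Leaving out 1 library moved that last value between -0.14 and 0.011. The other changes follow. In nuclear against cytoplasmic mock, limma called 1 ELAVL1 peak with a 4 times smaller pseudocount (1.87% of all peaks called), 1 was called by edgeR with TMM (1.03%), and 0 to 2 with 1 library left out (0% to 7.46%); for arsenite against mock in the cytoplasm it was 1 with the smaller pseudocount (3.49%), 1 with edgeR and library totals (1.44%), and 0 to 1 with a library left out (0% to 7.16%). The 3'UTR sum ranged from -19.3 to -6.89 CPM for arsenite against mock in the cytoplasm, and from -3.97 to 0.31 CPM for nuclear against cytoplasmic arsenite with a library left out, and the 3'UTR share from -0.31 to 3.90 points, with -0.82 points by group medians. NLS against NES enriched was 2.94 CPM in mock and 5.91 CPM after arsenite within JL1024, and -7.12 to 6.12 CPM in mock with a library left out. G3BP against NES enriched in mock was -7.46 to 37.7 CPM, and arsenite against mock in G3BP enriched 17.5 to 54.3 CPM, with a library left out (42.4 CPM without mock replicate 3 when pairs not told apart count once). The causes of these changes were not tested. Same-numbered fraction libraries share only a number: deviations from their group means correlated at -0.0133 to 0.0107, and with the replicate block 3 ELAVL1 peaks were called in nuclear against cytoplasmic mock in place of 2 (2.53% of all peaks in place of 2.82%) and 0 in the other fraction comparisons. The ELAVL1 counts of 15 to 75 tags per fraction library limit what single peaks can show.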
